A study of Ramazzottius varieornatus and Hypsibius exemplaris with 16 samples.

Results

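The storage cell transcriptomes of the tardigrades Ramazzottius varieornatus and Hypsibius exemplaris were compared, using the 5 storage cell libraries of each species. These are 10 of the 16 libraries of the series, chosen by their titles and not by any measured value. The other 6 libraries come from active whole animals, 3 per species, and are used here only as a reference. R. varieornatus was the strain YOKOZUNA-1, kept at 22 °C, and H. exemplaris was the strain Z151, kept at 18 °C. Both were fed Chlorella vulgaris on agar, the whole animals are labelled active, and the sources used here give no age. Storage cells of both species were released by cutting the animals open in dilute buffer and drawn up by hand. These cells were lysed directly in the buffer of the SMART-Seq v.4 amplification kit, whereas whole animals were lysed in TRIzol and their RNA was purified on a column first. The number of cells or animals per library is not given in the sources used here. Strain, culture temperature and species cannot be told apart.

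Storage cells are free cells that float in the body cavity of tardigrades. They hold reserves such as glycogen, lipid and protein and are thought to supply other tissues with them. R. varieornatus survives rapid drying, whereas H. exemplaris needs slow drying or a period of preparation to survive the loss of its water. The label could not be checked against marker genes, because the files give target identifiers without gene names.

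A target is a transcript model listed in the deposited tables, with 14532 targets for R. varieornatus and 20853 for H. exemplaris. The targets of the species are not matched to each other, so whole libraries were compared by summary values, and no fold change between species is given for a gene. Levels are in TPM, the estimated count of a target divided by its effective length, with every library brought to an equal sum. Each level is therefore a share of its library, and fewer cells of a type and less RNA per cell cannot be told apart. Storage cell libraries held 8228370 to 11174369 estimated counts in R. varieornatus and 7680812 to 10343744 in H. exemplaris, so the depths of the species overlapped. No library stood apart in the 6 measures compared here by the gap test used for groups of this size. R. varieornatus replicate 2 and H. exemplaris replicate 3 were the least like their groups, with mean rank correlations with the other 4 libraries of 0.774 and 0.718. In the other 8 libraries this value was 0.808 to 0.846.

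The H. exemplaris storage cell libraries were the more concentrated on a few targets. The 10 leading targets of a library held 35.3% ± 7.42 of the TPM in H. exemplaris (SD, n = 5) and 21.2% ± 9.74 in R. varieornatus (SD, n = 5). By library, this share was 45.1%, 27.8%, 28.0%, 38.9% and 36.5% in H. exemplaris replicates 1 to 5. In R. varieornatus replicates 1 to 5 it was 12.8%, 15.2%, 22.3%, 18.5% and 37.4%. The groups overlapped through R. varieornatus replicate 5 alone, which lay above 3 of the 5 H. exemplaris libraries. The difference of 14.0 percentage points had p = 0.0476 (exact permutation test of 5 against 5 libraries, two-sided) and did not pass 0.05 after adjustment over the 6 measures (adjusted p = 0.0952, exact permutation test). Without R. varieornatus replicate 5 it was 18.1 percentage points (exact permutation p = 0.00794, adjusted p = 0.0476).

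The number of targets needed to reach 50% of the TPM gave the same picture. It was 244, 187, 125, 123 and 46 targets in R. varieornatus replicates 1 to 5, a mean of 145 ± 74.6 (SD, n = 5). In H. exemplaris it was 17, 73, 78, 25 and 41 targets, a mean of 46.8 ± 27.6 (SD, n = 5). Again only R. varieornatus replicate 5 fell within the range of the other species (exact permutation p = 0.0238, adjusted p = 0.0714). To reach 90% of the TPM, 1418 to 2818 targets were needed in R. varieornatus and 832 to 1480 in H. exemplaris. The 1000 leading targets held 79.9% ± 5.35 of the TPM in R. varieornatus (SD, n = 5) and 89.0% ± 2.18 in H. exemplaris (SD, n = 5).

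**Figure D1:**
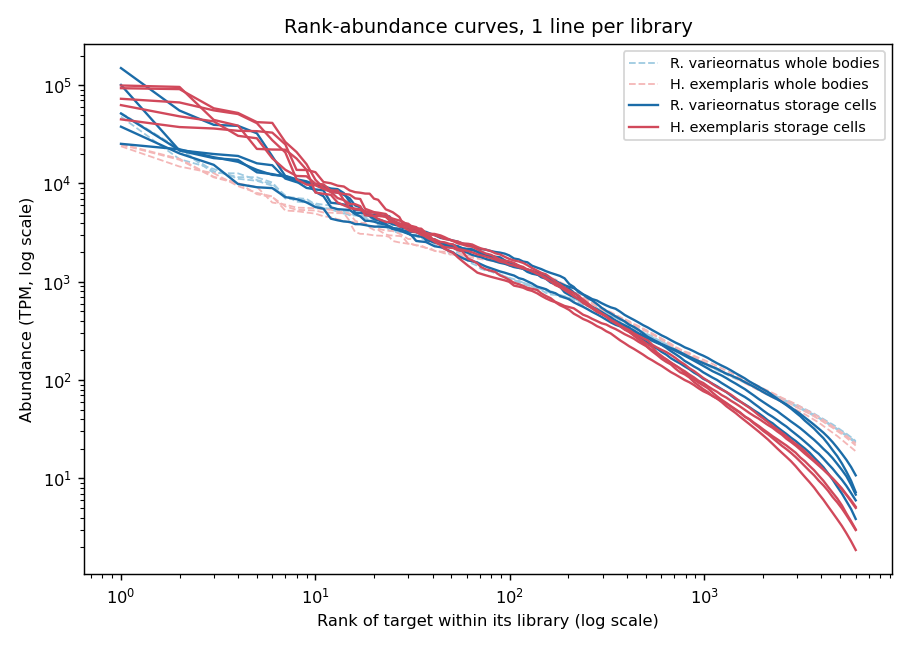
Abundance in TPM (y axis, log scale) against the rank of the target in its library (x axis, log scale), with 1 line for each of the 16 libraries, whole bodies dashed. The H. exemplaris storage cell lines start high, with the target at rank 5 at 22441 to 42026 TPM, and end low, with the target at rank 5000 at 3.47 to 8.18 TPM.

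The curves of abundance against rank crossed between the species. At rank 1 the mean levels were close, with 72786 ± 51274 TPM in R. varieornatus and 74438 ± 22217 TPM in H. exemplaris (SD, n = 5 each). At rank 5 the level was 16846 ± 9016 TPM in R. varieornatus and 33656 ± 8275 TPM in H. exemplaris (SD, n = 5 each). The mean level of H. exemplaris was also the higher at rank 20, with 5288 ± 979 TPM against 4241 ± 420 TPM (SD, n = 5 each). The levels were again close at rank 100, at 1511 ± 236 TPM and 1365 ± 333 TPM at rank 100 (SD, n = 5 each, R. varieornatus first). Below that the order turned, and at rank 5000 the level was 12.8 ± 4.37 TPM in R. varieornatus and 6.11 ± 2.03 TPM in H. exemplaris (SD, n = 5 each). The slope of log10 TPM on log10 rank over ranks 10 to 1000 was -0.97 ± 0.07 in R. varieornatus and -1.11 ± 0.04 in H. exemplaris (SD, n = 5 each). This difference of -0.14 did not pass after adjustment (exact permutation p = 0.0238, adjusted p = 0.0714). Over ranks 10 to 5000 the difference was -0.19 and the groups no longer overlapped (exact permutation p = 0.00794, the smallest this design allows, adjusted p = 0.0476).

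By these measures of concentration in TPM, the species were closer to each other in whole animals. The 10 leading targets held 14.4% ± 0.61 of the TPM in R. varieornatus whole bodies (SD, n = 3) and 10.02% ± 0.3 in those of H. exemplaris (SD, n = 3), the opposite order to that in storage cells. The species difference in storage cells minus that in whole bodies came to 18.4 percentage points (two-sided permutation of species labels within each sample type, p = 0.00794, adjusted p = 0.0159). For the number of targets that reach 50% of the TPM it was -118 targets (permutation test, p = 0.0226, adjusted p = 0.0271), with 316 ± 13.6 targets in R. varieornatus and 336 ± 47.1 in H. exemplaris whole bodies (SD, n = 3 each). For the slope it was -0.12 (permutation test, p = 0.0183, adjusted p = 0.0271), with -0.87 ± 0.01 in R. varieornatus and -0.89 ± 0.03 in H. exemplaris whole bodies (SD, n = 3 each). With estimated counts the species were not closer in whole animals by number of targets. The species difference in targets that reach 50% was -155.2 in storage cells, and this minus the whole-body difference was -451.2. The 10 leading targets held 20.9% ± 0.59 and 9.3% ± 0.81 of the counts in whole bodies (SD, n = 3 each, R. varieornatus first). In storage cells they held 18.1% ± 9.96 and 34.7% ± 13.4 (SD, n = 5 each). Whole-body libraries spread far less than storage cell libraries, and p-values of this permutation between sample types may then be too small. The preparation of RNA differed between sample types in the same way in both species, so it cannot be told apart from the sample type within a species.

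**Figure D2:**
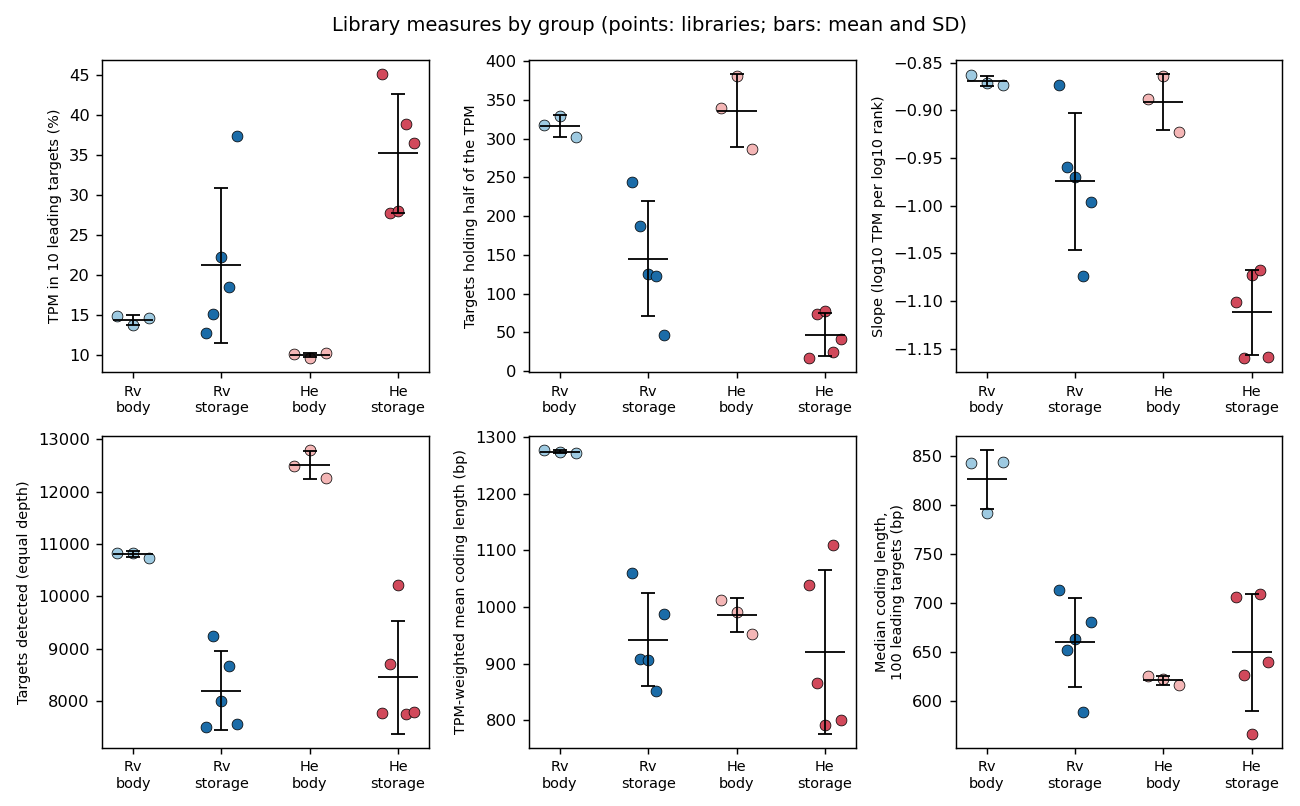
The 6 measures (y axes, units in the labels) in each library, by species (Rv, R. varieornatus; He, H. exemplaris) and sample type, with points for libraries and bars for the mean and SD. Whole-body libraries lie close together, storage cell libraries spread, and the 10 leading targets hold at least 27.8% of the TPM in every H. exemplaris storage cell library.

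The target with the highest mean level in R. varieornatus storage cells was g1671.t1, with a coding length of 510 bp. Its level was 37762, 22232, 100431, 51430 and 32355 TPM in replicates 1 to 5, which placed it 1st, 2nd, 1st, 1st and 5th in its libraries. In whole bodies it had 6961, 6011 and 6072 TPM, below every storage cell library. The runner-up, g2834.t1 (1056 bp), owed its place to replicate 5, where it had 149026 TPM and ranked first. In replicates 1 to 4 it had 3119, 9342, 12442 and 7649 TPM, all below the 17670 to 22448 TPM of whole bodies. The target g12750.t1 (861 bp) led replicate 2 with 25283 TPM and had 1686, 12970, 21767 and 55126 TPM in replicates 1, 3, 4 and 5. It was also the leading target of whole bodies, at 50496 ± 2418 TPM (SD, n = 3), and the storage cell and whole-body values overlapped.

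The targets that followed in R. varieornatus were high in most of the 5 libraries. The target g1676.t1 (525 bp) had 9149, 11022, 17341, 19916 and 39444 TPM, and g1669.t1 (519 bp) had 5535, 18474, 18084, 15315 and 7401 TPM. Both lay above whole bodies in every library, where they had 3315 ± 299 and 2380 ± 456 TPM (SD, n = 3 each). The target g7188.t1 (759 bp) had 3355 to 38489 TPM and g3402.t1 (1179 bp) had 881 to 18870 TPM, in each case with replicate 1 lowest and replicate 5 highest. The target g4549.t1 (780 bp) stood at 7974 to 20188 TPM in replicates 1, 2, 3 and 5 but at 100.3 TPM in replicate 4. The targets g12749.t1 (1035 bp) and g6309.t1 (858 bp) had coefficients of variation of 38.9% and 47.1%. Estimated counts of g12749.t1 were not whole numbers, which marks reads divided between similar targets, so that its level is uncertain.

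In H. exemplaris storage cells the highest mean belonged to BV898_18925.t01, with a coding length of 438 bp. Its level was 58118, 48137, 37442, 95823 and 41016 TPM in replicates 1 to 5, and it ranked 2nd to 5th in each library without leading any. Its level in whole bodies was 310.4 ± 41.7 TPM (SD, n = 3), and it ranked 520th there. It had the lowest coefficient of variation of the first 10, 42.0%. The first rank was taken by other targets. BV898_01325.t01 (1263 bp) led replicates 1 and 4 with 93024 and 99117 TPM and had 13769, 5448 and 5469 TPM in replicates 2, 3 and 5. BV898_16263.t01 (507 bp) led replicates 3 and 5 with 44833 and 72614 TPM and had 2470, 42734 and 13008 TPM in replicates 1, 2 and 4. BV898_01079.t01 (801 bp) led replicate 2 with 62603 TPM and had 3267, 34293, 5449 and 55352 TPM in the others. Replicates 1 and 4 were thus high in the first of these targets and low in the other two, and replicates 2, 3 and 5 the reverse.

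Replicate 1 was also the lowest library for 3 more of the first 10 targets of H. exemplaris. BV898_07018.t01 (561 bp) had 7695 TPM in replicate 1 and 28782 to 66609 TPM in the others, and BV898_16259.t01 (492 bp) had 3006 TPM in replicate 1 and 22127 to 50800 TPM in the others. Counts of BV898_16259.t01 were not whole numbers, so its level is uncertain. BV898_00195.t01 (948 bp) had 1204 and 4552 TPM in replicates 1 and 4 and 13690 to 27518 TPM in replicates 2, 3 and 5. The remaining 3 of the first 10 were instead highest in replicate 1. BV898_13827.t01 (603 bp) had 91019 and 4622 TPM in replicates 1 and 2 and 3.08, 20.1 and 0.461 TPM in replicates 3, 4 and 5. BV898_16073.t01 (855 bp) had 52081 and 2443 TPM in replicates 1 and 2 and at most 2.71 TPM in the others, with no count in replicate 5. BV898_02514.t01 (612 bp) had 41286 TPM in replicate 1, 10045 TPM in replicate 4 and 261.3 to 2313 TPM in the rest.

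**Figure D3:**
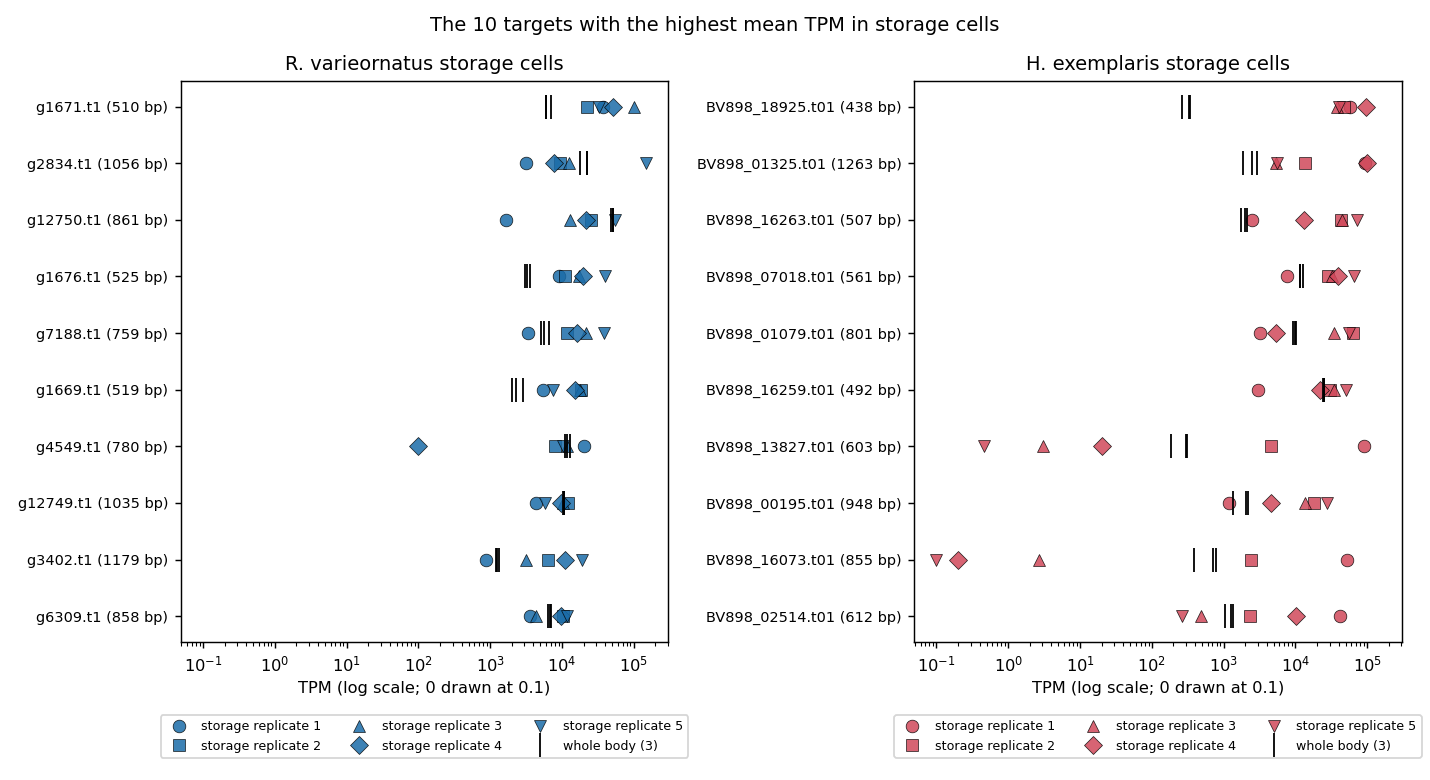
TPM (x axis, log scale, 0 drawn at 0.1) of the 10 targets with the highest mean TPM in the storage cells of each species, with coding lengths beside the identifiers, 1 symbol per storage cell library and black ticks for the 3 whole-body libraries. In R. varieornatus 1 of the 10 targets spans more than 100-fold between libraries, and in H. exemplaris 3 do.

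Differences between libraries of this size were more common among the leading targets of H. exemplaris. Among the 100 targets with the highest mean TPM, the highest library exceeded the lowest by more than 10-fold for 58 targets in H. exemplaris and 32 in R. varieornatus, and by more than 100-fold for 21 and 15. The median coefficient of variation over these 100 targets was 76.7% in H. exemplaris and 49.3% in R. varieornatus. The 3 steadiest of the first 50 in R. varieornatus were g11538.t1 (837 bp, 2386 ± 397 TPM), g13844.t1 (561 bp, 2321 ± 420 TPM) and g11125.t1 (486 bp, 2235 ± 427 TPM; SD, n = 5 each). In H. exemplaris they were BV898_01276.t01 (1854 bp, 2455 ± 925 TPM), BV898_18925.t01 and BV898_16264.t01 (519 bp, 8919 ± 3914 TPM; SD, n = 5 each). Within the first 50, the lowest coefficient of variation was thus 37.7% in H. exemplaris and 16.6% in R. varieornatus. Over the first 100 the lowest values were closer, 18.0% for BV898_07369.t01 and 14.3% for g930.t1, both chosen after their values were seen. All 6 of the steadiest targets of the first 50 lay above whole bodies in every storage cell library. Of the first 50, 21 did so in R. varieornatus and 14 in H. exemplaris, against 5.67% and 3.56% of the targets with a count in any library. Choice by high level and low variation in storage cells favours this order, so nothing is read from it.

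The least steady of the first 50 differed strongly between libraries. In R. varieornatus, g11193.t1 (846 bp) had 8879 and 3269 TPM in replicates 2 and 4 and at most 5.21 TPM in the other 3. The target g773.t1 (2730 bp) had the opposite pattern, with 15458, 5346 and 781.5 TPM in replicates 1, 3 and 5 and 11.8 and 3.32 TPM in replicates 2 and 4. In H. exemplaris, BV898_08387.t01 (936 bp) and BV898_10202.t01 (882 bp) were high in replicate 3, with 36195 and 13728 TPM. In the other 4 libraries they had 54.8 to 1361 TPM and 18.0 to 461.1 TPM. Both rank high in whole bodies, at 2nd and 7th, where BV898_08387.t01 had 14854 to 17777 TPM. The part of other tissue in these libraries was not tested.

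A group of leading targets with nearby identifier numbers and similar coding lengths appeared in each species, a pattern chosen after the values were seen. In R. varieornatus these were g1665.t1, g1669.t1, g1671.t1, g1675.t1 and g1676.t1, which are 510 to 537 bp long. In H. exemplaris they were BV898_16257.t01, BV898_16258.t01, BV898_16259.t01, BV898_16263.t01 and BV898_16264.t01, which are 471 to 519 bp long. The files do not say whether targets with nearby numbers are neighbours in the genome or related in sequence. In R. varieornatus the 5 targets together held 5.67%, 5.78%, 14.2%, 9.52% and 8.64% of the TPM in replicates 1 to 5, against 1.26% to 1.49% in whole bodies. In H. exemplaris they held 1.11%, 10.1%, 9.57%, 5.33% and 16.4%, against 3.14% to 3.41% in whole bodies. These H. exemplaris shares are uncertain, since BV898_16257.t01 and BV898_16259.t01 had estimated counts that were not whole numbers. The mean shares were close, 8.76% ± 3.48 in R. varieornatus and 8.5% ± 5.72 in H. exemplaris (SD, n = 5 each). All 5 R. varieornatus libraries lay above the whole bodies of the species, whereas H. exemplaris replicate 1 lay below its own. The members of each group were chosen by their high level in storage cells, which favours shares above whole bodies. Nothing is therefore read from the shares that lay above whole bodies, or from the contrast between species in this order. Members were taken from the 100 leading targets by mean TPM, so other targets with numbers inside these runs had to be lower. Most of these others were far lower. Those of the R. varieornatus run had mean levels of 2.39 TPM (g1673.t1) to 193 TPM (g1672.t1). In the H. exemplaris run BV898_16260.t01 (345 bp) had 1174 ± 737.6 TPM (SD, n = 5), and BV898_16261.t01 had no count in any library. A further H. exemplaris run, BV898_04116.t01, BV898_04117.t01 and BV898_04120.t01, held 0.451% to 2.37% of the TPM with lengths of 987 to 5475 bp.

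The targets present at high level in every library were few. Of the targets among the 10 leading ones of a library, g1671.t1 and g1676.t1 were so placed in all 5 libraries of R. varieornatus, and BV898_18925.t01 in all 5 of H. exemplaris. Over the 5 libraries, 23 different targets entered the first 10 in R. varieornatus and 27 in H. exemplaris. Among the first 100 of every library there were 26 targets in R. varieornatus and 13 in H. exemplaris, of 213 and 255 targets that entered the first 100 of any library. These 26 targets held 22.6% ± 10.5 of the TPM and the 13 held 27.6% ± 7.47 (SD, n = 5 each). In the 3 whole-body libraries, 88 and 82 targets were common to the first 100 of every library, in the same order of species. Comparison of 5 libraries leaves fewer common targets than comparison of 3. Pairs of storage cell libraries shared 35 to 76 of their first 100 in R. varieornatus and 24 to 75 in H. exemplaris, against 91 to 94 and 87 to 89 for pairs of whole bodies.

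The leading storage cell targets were compared with whole bodies by whether the libraries overlapped. In R. varieornatus the lowest storage cell library exceeded the highest whole body for 51 of the 100 leading targets, against 5.67% of the targets with a count in any library. In H. exemplaris this held for 26 of 100, against 3.56%. The targets were chosen by their level in storage cells, which favours values above whole bodies, so nothing is read from either excess. The reverse order held for 3 of the 100 in R. varieornatus and 1 in H. exemplaris, against 36.9% and 53.2% of all such targets. The 100 leading targets of storage cells included 44 of the first 100 of whole bodies in R. varieornatus and 36 in H. exemplaris.

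Coding lengths of the 100 leading targets were close in the storage cells of the species and further apart in their whole bodies. For the 10 targets of highest mean TPM this was reversed. Their median length was 819 and 607.5 bp in storage cells, and 882 and 873 bp in whole bodies (R. varieornatus first). The median length of the 100 leading targets of a storage cell library was 660 ± 45.8 bp in R. varieornatus and 650.1 ± 59.7 bp in H. exemplaris (SD, n = 5 each). By library it was 714, 652.5, 663, 589.5 and 681 bp in R. varieornatus and 706.5, 627, 567, 709.5 and 640.5 bp in H. exemplaris. The ranges overlapped almost fully, and the difference of -9.9 bp was smaller than the spread between libraries (exact permutation p = 0.762, adjusted p = 0.786). In whole bodies the value was 826.5 ± 29.9 bp in R. varieornatus and 621.5 ± 4.58 bp in H. exemplaris (SD, n = 3 each). The species difference in storage cells minus that in whole bodies was 195 bp (permutation test within sample type, p = 0.00119, adjusted p = 0.00714). With storage cell values taken relative to the whole-body mean of their species, the adjusted p was 0.0159 (exact permutation test). The species difference was -205 bp in whole bodies and -9.9 bp in storage cells. All 5 R. varieornatus storage cell libraries lay below its 3 whole bodies, whereas the H. exemplaris libraries lay on both sides of theirs. The median over all listed targets was 1080 bp in R. varieornatus and 993 bp in H. exemplaris, longer than that of the leading targets in every group.

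The mean coding length weighted by TPM gave a like result. It was 942.6 ± 81.5 bp in R. varieornatus and 921.3 ± 144.5 bp in H. exemplaris storage cells (SD, n = 5 each; exact permutation p = 0.786, adjusted p = 0.786). In whole bodies it was 1274 ± 2.62 bp and 985.6 ± 30.2 bp (SD, n = 3 each, R. varieornatus first). The species difference in storage cells minus that in whole bodies was 267.2 bp (permutation test within sample type, p = 0.00595, adjusted p = 0.0159). With estimated counts as weights, the storage cell difference was 285.2 bp in the other direction, with H. exemplaris longer (exact permutation p = 0.357), and the difference between sample types was 1158 bp (adjusted permutation p = 0.00476). Within H. exemplaris, replicates 1 and 4 had 1040 and 1109 bp and replicates 2, 3 and 5 had 865.1, 791.7 and 801.2 bp. These are the same libraries that were set apart by their leading targets, of which BV898_01325.t01 is longer than BV898_16263.t01 and BV898_01079.t01. The much longer BV898_00099.t01 (9240 bp) was also higher in replicates 1 and 4, with 6948 and 9304 TPM against 16.5 to 502.3 TPM in the others. What these targets add to the mean length was not tested.

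Storage cells of R. varieornatus held more TPM in short targets and less in long ones than whole bodies. Targets of 300 to under 600 bp held 33.6% ± 5.75 of the TPM in R. varieornatus storage cells (SD, n = 5) and 21.3% ± 0.27 in whole bodies (SD, n = 3). Targets of 2400 bp and over held 3.24% ± 1.43 (SD, n = 5) and 10.4% ± 0.02 (SD, n = 3). The storage cell and whole-body values did not overlap in either class. In H. exemplaris, targets of 300 to under 600 bp held 39.0% ± 9.29 in storage cells (SD, n = 5) and 33.9% ± 1.04 in whole bodies (SD, n = 3), and those of 2400 bp and over held 3.25% ± 2.18 and 4.26% ± 0.54. Both classes overlapped between the sample types there. Targets of 2400 bp and over thus had nearly equal shares in the storage cells of the species. Long targets did occur among the 100 leading ones. In R. varieornatus g772.t1 (5358 bp) ranged from 70.0 to 8198 TPM, all below the 9477 to 11552 TPM of whole bodies, and g2620.t1 (2079 bp) from 991.1 to 2374 TPM. In H. exemplaris BV898_00099.t01 (9240 bp) ranged from 16.5 to 9304 TPM, BV898_04117.t01 (5475 bp) from 378.5 to 6794 TPM and BV898_08330.t01 (5631 bp) from 72.5 to 8153 TPM. The shortest of the leading 100 were g4075.t1 (324 bp), g3595.t1 (345 bp) and g10018.t1 (348 bp) in R. varieornatus, all 3 above whole bodies in every library. In H. exemplaris they were BV898_17523.t01 (318 bp), BV898_10007.t01 (327 bp) and BV898_11354.t01 (348 bp), of which the first and second lay above whole bodies in every library. Choice by level in storage cells favours this order.

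**Figure D4:**
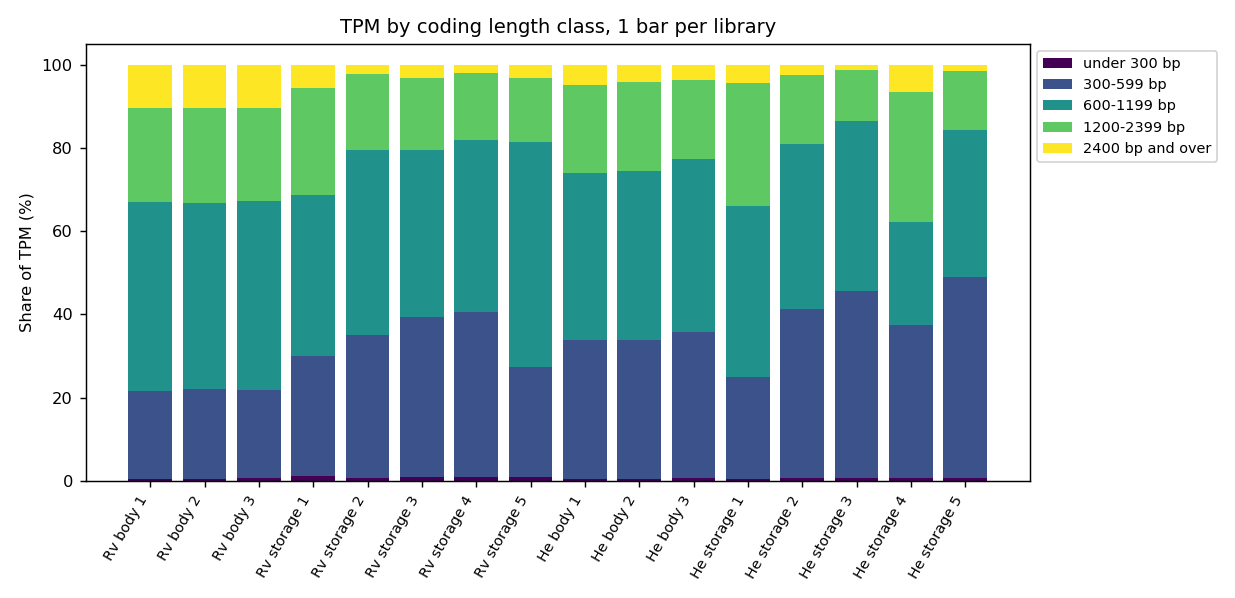
Share of TPM (y axis, percent) in 5 classes of coding length, 1 bar per library (Rv, R. varieornatus; He, H. exemplaris). The class of 2400 bp and over holds 10.3% or more in R. varieornatus whole bodies and at most 5.59% in its storage cells, while in H. exemplaris the sample types overlap.

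Similar numbers of targets were detected in storage cells of the species at equal depth. A target was called detected with at least 5 counts after thinning to 7680814 counts, the depth of the shallowest storage cell library. The number was 7647, 9641, 8162, 8962 and 7825 targets in R. varieornatus replicates 1 to 5, and 8101, 9008, 10661, 8071 and 8171 in H. exemplaris. The means of 8447 ± 837 and 8802 ± 1109 (SD, n = 5 each) differed by less than the spread between libraries (exact permutation p = 0.571, adjusted p = 0.786). The order depended on H. exemplaris replicate 3, and without it H. exemplaris had 110 targets fewer (exact permutation p = 0.833). Since more targets are listed for H. exemplaris, the share of listed targets detected was 15.9 percentage points lower there (exact permutation p = 0.00794, adjusted p = 0.0476). Whole bodies showed a like gap in that share, 60.01% ± 1.28 against 74.3% ± 0.39 (SD, n = 3 each), and the difference of these gaps was -1.58 percentage points (permutation test within sample type, p = 0.632). By number of targets, the species difference in storage cells minus that in whole bodies was -1463 (permutation test, p = 0.0329, adjusted p = 0.0329), and leaving out single libraries ended this call in 6 of 16 cases, as without R. varieornatus storage cell replicate 2 (-1200, permutation test, adjusted p = 0.0726). On a log2 scale it was -0.17 (permutation test, p = 0.104), above the threshold.

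Nearly the same number of targets was shared by all 5 storage cell libraries in each species. This was 6661 targets in R. varieornatus and 6640 in H. exemplaris, which is 61.2% and 56.3% of the targets detected in any storage cell library. The shared targets held 92.1% ± 8.67 of a library's TPM in R. varieornatus and 93.7% ± 7.56 in H. exemplaris (SD, n = 5 each). By library the share was 97.3%, 80.4%, 98.3%, 85.2% and 99.2% in R. varieornatus replicates 1 to 5, so replicates 2 and 4 had the most TPM in targets that were not detected in all 5. In H. exemplaris it was 81.0%, 97.3%, 92.3%, 98.5% and 99.2%, with replicate 1 lowest. Of the shared targets, 98.0% in R. varieornatus and 97.2% in H. exemplaris were also detected in all 3 whole bodies of the species. Of the targets detected in no storage cell library, 19.0% and 15.5% were. Over all listed targets, a whole-body library detected 74.3% ± 0.39 and 60.01% ± 1.28 on average (SD, n = 3 each). That is the share of single libraries, and detection in all 3 is the stricter measure. Shared targets detected in no whole-body library numbered 35 and 53. Whole-body libraries held at most 5807509 counts, fewer than the 7680814 used for storage cells, which favours targets missed in whole bodies. The shared targets were longer than those detected in no storage cell library, with median coding lengths of 1299 and 1275 bp against 612 and 621 bp in R. varieornatus and H. exemplaris. Detection rests on counts, and at equal TPM a longer target gathers more of them, which favours this order. Of the targets detected in no storage cell library, 2535 of 3645 and 6720 of 9051 were detected in no whole body either.

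**Figure D5:**
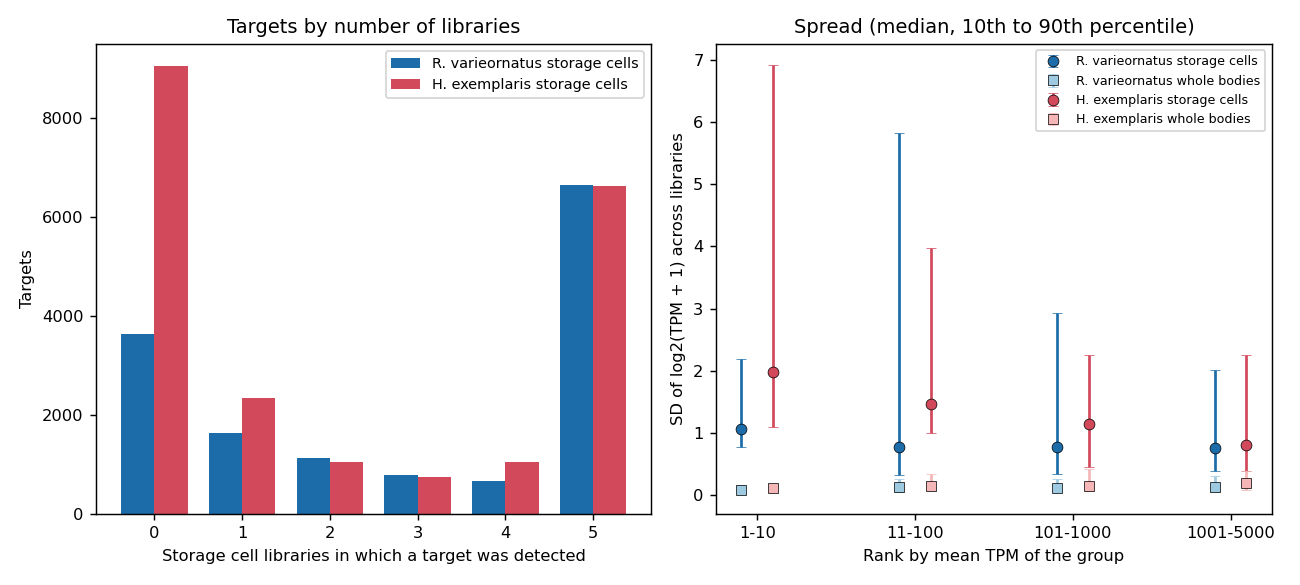
Left, number of targets (y axis) by the number of storage cell libraries in which they were detected (x axis). Right, SD of log2(TPM + 1) across libraries (y axis) by rank of mean TPM (x axis), as the median with the 10th to 90th percentile over targets. The species match at 5 libraries, with 6661 and 6640 targets, and the H. exemplaris spread falls from 1.97 to 0.81 along the ranks while that of R. varieornatus falls from 1.07 to 0.77.

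Targets found in a single library came mostly from 1 library in each species. In R. varieornatus, 1640 targets were detected in a single library, of which 918 in replicate 2. In H. exemplaris, 2333 were, of which 1712 in replicate 3. Of the 1136 R. varieornatus targets detected in exactly 2 libraries, 524 were in the pair of replicates 2 and 4. Of the 1047 such H. exemplaris targets, 365 were in the pair of replicates 3 and 5 and 207 in that of replicates 2 and 3. Of the targets found in a single library, 58.8% in R. varieornatus and 64.6% in H. exemplaris were detected in all 3 whole bodies. Over all listed targets, a whole-body library detected 74.3% ± 0.39 and 60.01% ± 1.28 on average (SD, n = 3 each). These averages are for single libraries, and detection in all 3 is the stricter measure. Nothing is therefore read from these shares. The share of a library's TPM in targets found nowhere else was 2.19% in R. varieornatus replicate 2, 1.62% in H. exemplaris replicate 3 and at most 0.2% in the other 8 libraries.

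The spread between replicates differed between species at the top of the abundance range and was close lower down. It was measured as the SD of log2(TPM + 1) across the 5 libraries, with no test, since targets are not independent. In the 10 leading targets the median SD was 1.07 in R. varieornatus and 1.97 in H. exemplaris. At ranks 11 to 100 it was 0.77 and 1.47, at ranks above 100 and up to 1000 it was 0.77 and 1.14, and at ranks above 1000 and up to 5000 it was 0.77 and 0.81. The spread of R. varieornatus was thus nearly flat from rank 11 on, while that of H. exemplaris was largest among the most abundant targets. In whole bodies the median SD over these classes was 0.09 to 0.14 in R. varieornatus and 0.11 to 0.19 in H. exemplaris, over 3 libraries each. The order was the other way for the most variable targets at ranks 11 to 100, where the 90th percentile of the SD was 5.82 in R. varieornatus and 3.97 in H. exemplaris, and at ranks above 100 and up to 1000, where it was 2.93 and 2.25. Targets with no count in at least 1 library numbered 4 of 90 at those ranks in R. varieornatus and 0 of 90 in H. exemplaris. At ranks above 100 and up to 1000 they numbered 44 and 14 of 900.

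Over all targets with a count in any storage cell library, the rank correlation of TPM between pairs of libraries had a median of 0.828 in R. varieornatus and 0.821 in H. exemplaris. The lowest and highest of the 10 pairs were 0.743 and 0.895 in R. varieornatus and 0.677 and 0.892 in H. exemplaris. The lowest pairs held replicate 2 in R. varieornatus, with replicates 1 and 5, and replicate 3 in H. exemplaris, with replicates 1 and 4. These correlations are across 12787 and 14241 targets, are given as a description and share libraries between pairs.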

How the data were processed

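The 10 storage cell libraries and 6 whole-body libraries carry biological replicate numbers in their labels. P-values take the library as the unit, and the SD gives the spread between libraries. The authors quantified reads as estimated counts and TPM per target with kallisto 0.46.1 after bcl2fastq 2, per the submitters' processing notes. The deposited estimated counts and TPM were used as given, with listed lengths per the file headers. The annotation is not given in the sources used here. Listed lengths are multiples of 3 for 99.6% (R. varieornatus) and 99.2% (H. exemplaris) of targets and are called coding lengths. Of the identifiers, 0 matched a RefSeq gene table of R. varieornatus (Rvar_4.0), so no gene name, marker or sequence is given.

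Members, measures and lists were chosen with earlier results of these data known. Named targets are the 10 of highest mean TPM, any ranked first in a library, the 3 least and 3 most variable of the first 50, and the 3 longest and 3 shortest of the first 100, in each species. For detection, rounded counts were thinned without replacement to 7680814 counts in storage cells, and 5 counts were required. Where the number detected was compared with whole bodies, they were thinned to 5404544 counts. Targets shared by storage cell libraries were counted at 7680814. Each of 6 measures was 1 value per library. Species were compared by an exact permutation test of 5 against 5 libraries, whose smallest p is 0.00794, and the species differences of the sample types by permuting species labels within sample type. P-values were adjusted by Benjamini-Hochberg over the 6 measures, with a threshold of 0.05. No count model was fitted, because targets are not matched. Measures were tested on simulated data. Scripts ran under Python 3.11.15 with pandas 2.3.3 for tables, numpy 2.4.6 for arithmetic and scipy 1.17.1 for special functions. Alternatives were counts in place of TPM, length and abundance filters, sums per gene, other list sizes and minimums, log scales, single libraries left out, and pairing by replicate number.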

Additional observations from a re-analysis of the deposited data

Results flagged for a closer look

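Among 52 groups of 5 storage cell libraries, 8 had a highest library separated from the next by more than 0.71 of the range of the group. Chance gives about 1 in 20 groups if values are independent and normally distributed, which TPM values of chosen targets need not be. In R. varieornatus, g2834.t1 had 149026 TPM in replicate 5. In H. exemplaris replicate 1, BV898_13827.t01 had 91019 TPM, BV898_16073.t01 had 52081 TPM, BV898_02514.t01 had 41286 TPM and BV898_17523.t01 had 3758 TPM. In replicate 3, BV898_08387.t01 had 36195 TPM and BV898_10202.t01 had 13728 TPM. In replicate 4, BV898_08330.t01 had 8153 TPM. Several of these targets were named for their variability, so a high share of separated libraries follows from their choice. The others were named for a high mean level or for their coding length. The number of flagged groups is therefore not read against chance.

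For all 6 measures the species difference (H. exemplaris minus R. varieornatus) in storage cells differed from that in whole bodies by a permutation test of the species labels within sample type. These p-values may be too small, since whole bodies spread far less than storage cells. For the share of TPM in the 10 leading targets, the storage cell difference minus the whole-body difference was 18.4 percentage points (adjusted p = 0.0159, permutation test). For the number of targets that hold 50% of the TPM it was -118 (adjusted p = 0.0271, permutation test), and for the slope of the curve -0.12 (adjusted p = 0.0271, permutation test). For the number of detected targets it was -1463 (adjusted p = 0.0329, permutation test). This call ended in 6 of 16 omissions of single libraries. It also did not pass as a percent of the listed targets or on a log2 scale. For the TPM-weighted mean coding length it was 267.2 bp (adjusted p = 0.0159, permutation test), and for the median coding length of the 100 leading targets 195.1 bp (adjusted p = 0.00714, permutation test).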

How the results depend on the processing

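Of the storage cell differences between species (H. exemplaris minus R. varieornatus), none of the 6 passed 0.05 after adjustment, and some alternatives did. The share of TPM passed with 100 leading targets (15.7 percentage points), and the slope passed over ranks 10 to 5000 (-0.19). Detected targets turned direction as a percent of the listed targets (-15.9 percentage points, passing) and with TPM of at least 1 (-2.4 targets). The weighted coding length turned with estimated counts (285.2 bp), and the median coding length with 50 leading targets (15.3 bp). The detected-target difference between sample types no longer passed with a minimum of 1 count (-1692), without thinning (-1476), as a percent of the listed targets (-1.58) or in log2 (-0.17). Among targets with a mean of at least 10 TPM, the median rank correlation of pairs was 0.677 in R. varieornatus and 0.643 in H. exemplaris. With counts per unit of depth in place of TPM, the median SD of log2 over the leading 1000 targets of H. exemplaris was 1.35 (1.18 with TPM). Causes of these changes were not tested.

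With single libraries left out, the share in 10 leading targets was 11.6 to 18.1 percentage points and passed without R. varieornatus replicate 5. Targets holding 50% of the TPM were -122.95 to -73.5 and passed without the same library. The slope was -0.16 to -0.11 and passed without R. varieornatus replicate 4. Detected targets were -109.65 to 653.4, negative without H. exemplaris replicate 3. The weighted coding length was -68.2 to 11.1 bp and turned without R. varieornatus replicate 1 (8.11 bp), H. exemplaris replicate 3 (11.1 bp) or 5 (8.71 bp). The median coding length was -27.5 to 10.9 bp and turned without R. varieornatus replicate 1 (3.6 bp) or H. exemplaris replicate 3 (10.9 bp). The detected-target difference between sample types was -1907 to -1200 and lost the threshold in 6 of 16 omissions (R. varieornatus storage cells 2 and 4, H. exemplaris storage cells 1, 4 and 5, and H. exemplaris whole body 2), with adjusted p up to 0.0726 by permutation test. The other 5 differences between sample types passed in every omission. The median SD over the leading 1000 targets was 0.69 to 0.84 in R. varieornatus and 0.95 to 1.28 in H. exemplaris.

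With the replicate number as a replicate block (sign changes over 5 same-numbered pairs, smallest exact p 0.0625), differences were the same as without it, 14.0 percentage points, -98.2 targets, -0.14, 355 targets, -21.3 bp and -9.9 bp, and none could pass. Replicate numbers of different species mark no shared animal. An alternative chosen after seeing the data, storage cell values minus the whole-body mean of their species, kept all 6 differences between sample types under 0.05 (adjusted exact permutation p 0.0159 to 0.0397). It takes the whole-body means as free of error. Thinning limits detected targets to those with 5 counts of 7680814.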
